A study of Mus musculus with 70 samples.

Results

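The D cyclins, their kinase partners Cdk4 and Cdk6, and the small proteins that hold these kinases back were followed here in regulatory T cells (Tregs) taken straight from mouse tissues. The 9 genes were listed by symbol: the D cyclins Ccnd1, Ccnd2 and Ccnd3, the kinases Cdk4 and Cdk6, the Cip/Kip inhibitors Cdkn1a and Cdkn1b, and the INK4 inhibitors Cdkn2c and Cdkn2d. Each symbol matched a single gene ID among the 53465 IDs of the count table, and all 9 were among the 13173 protein-coding genes that were tested. Ccnd1 passed the filter on low counts with little room, reaching 1 CPM (count per 1000000 counts) in 18 of the 67 libraries used, whereas 6 of the members reached it in all 67.

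RNA was sequenced from Tregs of 5 male mice aged 16.6 to 18.6 weeks carrying the Foxp3tm4(YFP/icre)Ayr allele, in which YFP and Cre are made under the Foxp3 gene. No mouse without this allele was included, and the cells were sorted by flow cytometry as live CD4+ YFP+ cells. ST2+ CD44hi and ST2- CD44hi effector Tregs came from blood, spleen, lungs, visceral adipose tissue (VAT), colon and back skin, and ST2- CD44lo CD62L+ central Tregs came from spleen and lungs, so that 14 groups of 5 mice gave 70 libraries. ST2 is the receptor for the alarm cytokine IL-33, CD44 marks T cells that have met antigen, and CD62L marks cells that recirculate through lymph nodes.

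The library totals used here ran from 1304560 to 2759926 counts with a median of 2039002, from 55 to 220 sorted cells each. Among the 67 libraries used, 60 came from 220 cells, and those with fewer were VAT ST2- CD44hi or blood libraries. Of the 70 libraries, 3 had under 1000000 counts and were left out, which left 4 ST2+ libraries in blood and 3 in colon. Foxp3, the defining factor of Tregs, was present in every group at mean levels from 139 to 381 CPM, and Il1rl1, the gene of ST2, had group means of 275 to 1457 CPM in ST2+ groups against 0.228 to 118 CPM in ST2- groups. Blood and spleen were not digested, whereas lungs, VAT, colon and skin were digested with collagenase. Skin was digested for longer and with more collagenase than lungs, VAT and colon. Colon was also stripped with DTT and EDTA, and only spleen and lungs were enriched for CD4+ T cells before sorting. Tissue and isolation thus cannot be told apart. Colon ST2+ libraries carried myeloid transcripts, with the 8 myeloid markers summing to 1098 to 1291 CPM against 33.5 to 225 CPM in colon ST2- libraries.

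A resting cell commits to division in G1. D cyclins, which are made in response to growth factors and antigen, bind Cdk4 or Cdk6, and the active kinases phosphorylate the retinoblastoma protein so that E2F factors can turn on the genes of S phase. The INK4 proteins bind Cdk4 and Cdk6 and keep D cyclins from them, whereas p21 and p27, the products of Cdkn1a and Cdkn1b, bind whole cyclin and kinase complexes and block mainly Cdk2. Cdkn1a is a classical target of p53 and is also turned on by growth factor, stress and differentiation signals. In T cells Cdkn1b is high in quiescence and its protein falls on activation, Ccnd2 and Ccnd3 are the main D cyclins, and Cdk6 is the more lymphoid of the kinases. RNA levels say nothing of the amount or activity of these proteins, several of which are controlled by degradation.

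Levels below are CPM of a TMM-scaled library total, means are given ± SD over mice, and a fold change is the edgeR estimate with all 14 groups in 1 model. A gene was called when its Benjamini-Hochberg adjusted p over all 13173 genes was at most 0.05 and its fold at least 1.5. Statements that groups overlap or do not overlap describe the members alone, since no share over all genes is given beside them. In these bulk libraries fewer cells expressing a gene and less of its RNA per cell cannot be told apart. The plot of all 9 genes shows the libraries behind each statement.

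**Figure D1:**
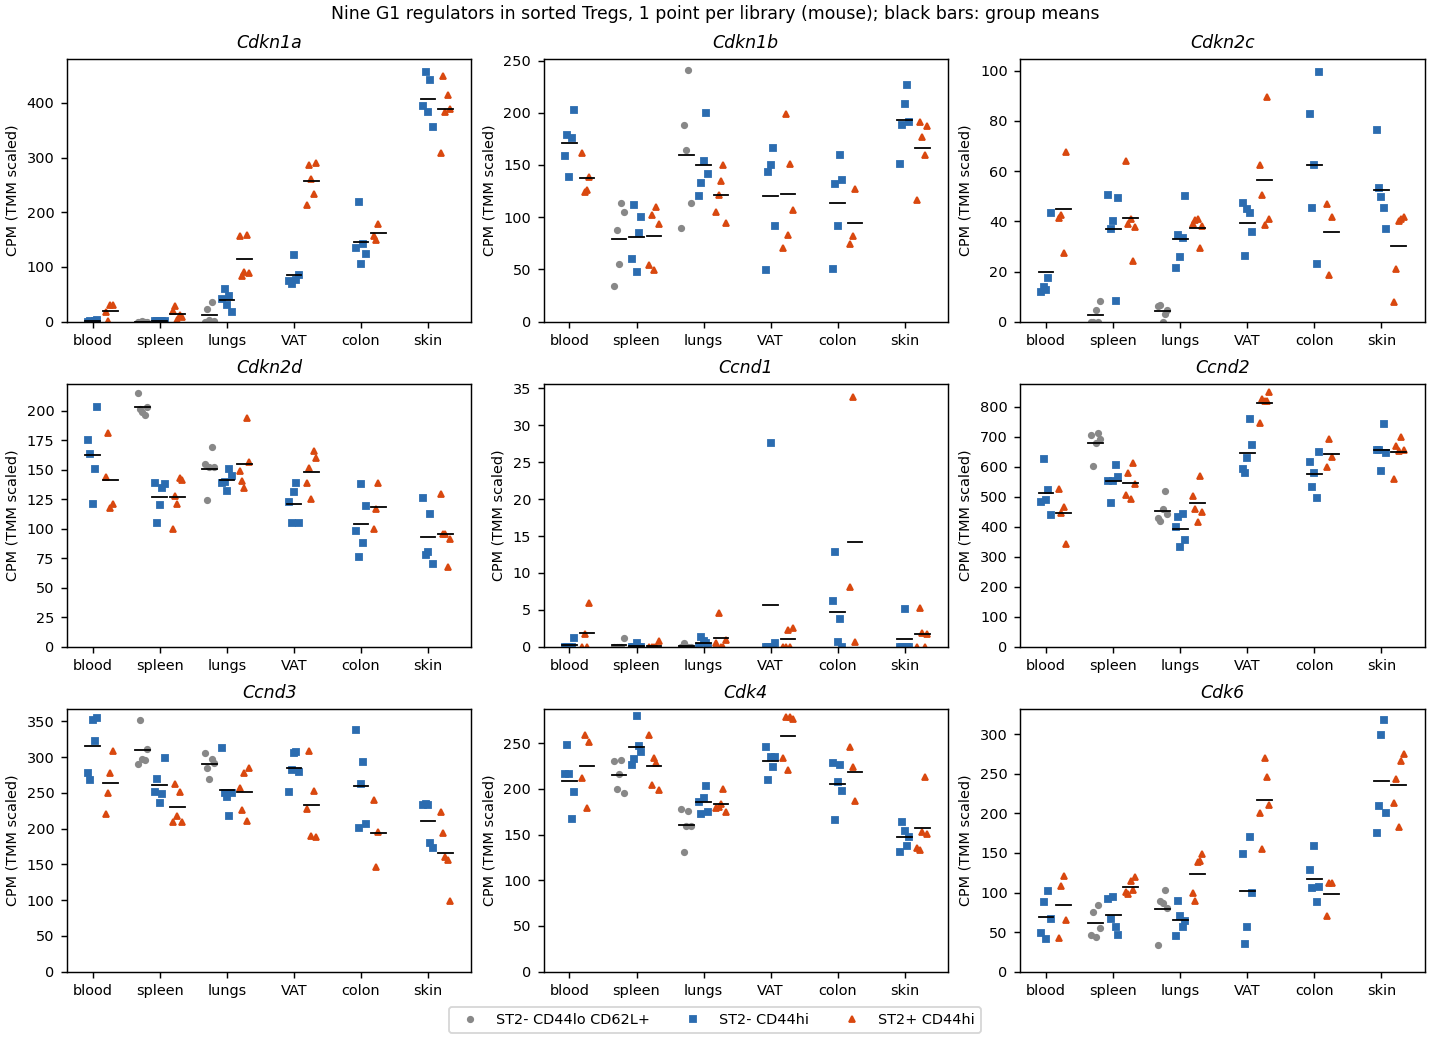
CPM (y axis, from 0) of the 9 genes in each library, by tissue (x axis). Each point is 1 mouse, grey circles are ST2- CD44lo CD62L+, blue squares ST2- CD44hi and orange triangles ST2+ CD44hi Tregs, and black bars are group means. Cdkn1a rises from near 0 in blood and spleen to group means of 406 and 389 CPM in skin, Cdkn2c has its lowest group means in the CD44lo groups, and Cdk6 is highest in skin and in VAT ST2+ Tregs.

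Cdkn1a, which encodes the inhibitor p21, had the widest range of the 9 genes, from a group mean of 0.0774 CPM in spleen CD44lo Tregs to 406 CPM in skin ST2- CD44hi Tregs. It lies on chromosome 17 from 29090976 to 29100727 on the plus strand (GRCm38). The 250 bases before its first RefSeq start (GRCm38, chr17:29090729-29090978, plus strand) are shown because p53, the best known activator of Cdkn1a, binds repeated elements with CATG at their core. Capitals mark each copy of the palindrome ACATGT, which reads the same on both strands and was searched for after the sequence had been read.

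Cdkn1a promoter: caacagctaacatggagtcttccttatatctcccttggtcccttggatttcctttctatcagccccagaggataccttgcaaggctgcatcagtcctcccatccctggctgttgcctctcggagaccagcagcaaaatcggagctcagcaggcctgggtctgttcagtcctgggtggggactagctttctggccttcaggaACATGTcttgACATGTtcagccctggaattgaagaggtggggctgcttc

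The copies start 49 and 39 bases before the start. Of 32851 RefSeq mouse promoters of the same 300 bases, 5.28% hold ACATGT and 0.329% hold 2 or more copies. Since the palindrome was picked from this sequence, these shares cannot tell whether the pair is unusual. The second Cdkn1a promoter entry (GRCm38, chr17:29093519-29093768, plus strand) holds no copy. A match of letters is no sign of binding, and no binding was measured here. Among the 7 members with a promoter entry, the FOXO motif GTAAACA was found once, 243 bases before a start of Ccnd3 on the minus strand (3.65% of all promoters hold it on either strand), and the E2F motif TTTCCCGC was found in none (1.07% of all promoters). Ccnd1 and Ccnd2 had no entry.

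Within tissues, the first question was how ST2+ and ST2- CD44hi Tregs differed. Over the 6 tissues, 4 of 54 tests of the members were called, all higher in ST2+ cells, where 1.46% of all gene by tissue tests were called. They were Cdkn1a in blood, spleen and VAT, and Cdk6 in VAT. By tissue the share of all genes called was largest in blood (4.13%) and VAT (3.20%), and smaller in lungs (0.789%), spleen (0.357%), skin (0.220%) and colon (0.0683%).

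In blood, Cdkn1a stood at 17.0, 1.27, 30.9 and 31.2 CPM in the ST2+ libraries of mice 2, 3, 4 and 5. In blood ST2- CD44hi Tregs it was at 0, 0.625, 0, 1.53 and 3.51 CPM in mice 1 to 5, a total of 10 counts. Mouse 3 was low in both populations, so the groups overlapped, but ST2+ was higher in 4 of 4 mice that had both. The ST2+ library of mouse 3 came from 55 sorted cells, and those of mice 2, 4 and 5 from 202, 220 and 220. The log2 fold change was 4.19 (SE 0.77, edgeR adjusted p = 0.000295), and with the 2 blood groups fitted alone the adjusted p was 0.248.

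In spleen, ST2+ Tregs held Cdkn1a at 19.3, 29.1, 3.12, 12.4 and 7.76 CPM and ST2- CD44hi Tregs at 1.87, 0.837, 1.74, 0.829 and 1.05 CPM in mice 1 to 5. The groups did not overlap and ST2+ was higher in 5 of 5 mice. The log2 fold change was 3.43 (SE 0.70, edgeR adjusted p = 0.0061), with an adjusted p of 0.232 without mouse 2, of 0.0599 without mouse 4 and of 0.556 without both.

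In VAT, Cdkn1a was at 213, 286, 261, 232 and 291 CPM in ST2+ Tregs and at 74.7, 68.7, 122, 76.8 and 85.6 CPM in ST2- CD44hi Tregs. Again the groups did not overlap, with a log2 fold change of 1.59 (SE 0.45, edgeR adjusted p = 0.0296). The adjusted p was 0.155, 0.101 and 0.110 without mouse 2, 4 or 5, 0.0683 in DESeq2, 0.0581 with all 70 libraries and 0.242 without mice 2 and 4. In the same comparison 5 of 12 immediate early and heat shock genes were called higher in ST2+ Tregs, where 1.28% of all genes were. Among the 5 were Atf3, Zfp36, Ier2 and Jund. The summed level of the 12 genes was 6248 to 9018 CPM in VAT ST2+ and 2788 to 5657 CPM in VAT ST2- libraries. Their part in the Cdkn1a difference was not tested. The VAT ST2- libraries came from 220, 93, 192, 118 and 135 sorted cells in mice 1 to 5, and each VAT ST2+ library from 220. The part of cell number in this difference was not tested either.

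Lungs had a Cdkn1a difference of similar size that was not called, 83.0 to 158 CPM in ST2+ against 18.04 to 60.02 CPM in ST2- CD44hi Tregs. The groups did not overlap and ST2+ was higher in 5 of 5 mice, with a log2 fold change of 1.54 (95% interval 0.63 to 2.45, edgeR adjusted p = 0.101). In limma voom with quality weights, the method of the study, the adjusted p was 0.0007, and in edgeR on the 2 groups alone it was 0.00777. The immediate early and heat shock genes also separated these groups without overlap, summing to 4924 to 5958 CPM in lung ST2+ and 3537 to 4889 CPM in lung ST2- CD44hi libraries, and their part in the Cdkn1a difference was not tested.

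In colon and skin the levels of Cdkn1a were high in both populations. Colon held it at 156, 149 and 179 CPM in the 3 ST2+ libraries and at 105 to 219 CPM in the ST2- CD44hi libraries, a log2 difference of 0.16 (95% interval -0.84 to 1.15). Skin held it at 308 to 448 CPM in ST2+ and 356 to 457 CPM in ST2- CD44hi Tregs, a difference of -0.06 (95% interval -0.91 to 0.79). These groups overlapped and neither difference passed the test. ST2+ was higher in 3 of 3 colon mice that had both libraries and in 2 of 5 skin mice. The highest colon ST2- CD44hi library, at 219 CPM, was that of mouse 2, whose ST2+ library was left out.

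The ST2 difference of Cdkn1a itself differed among the 6 tissues (edgeR test of tissue by ST2, adjusted p = 0.00578). Cdkn1a was the single member of the 9 called in that test, in which 1.40% of all genes were called. Set against blood, the log2 difference of ST2+ over ST2- CD44hi Tregs was lower by 4.25 in skin (SE 0.91, edgeR adjusted p = 0.0065) and by 4.03 in colon (SE 0.97, adjusted p = 0.0426). The blood difference rests on 10 counts in ST2- CD44hi Tregs and had an adjusted p of 0.248 in edgeR on the blood groups alone. In CPM the ST2+ and ST2- CD44hi means were 20.1 and 1.13 in blood, 115 and 39.7 in lungs, and 257 and 85.6 in VAT. The adjusted p of the overall test was 0.109 without mouse 2, 0.0879 without mouse 4 and 0.282 without both.

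**Figure D2:**
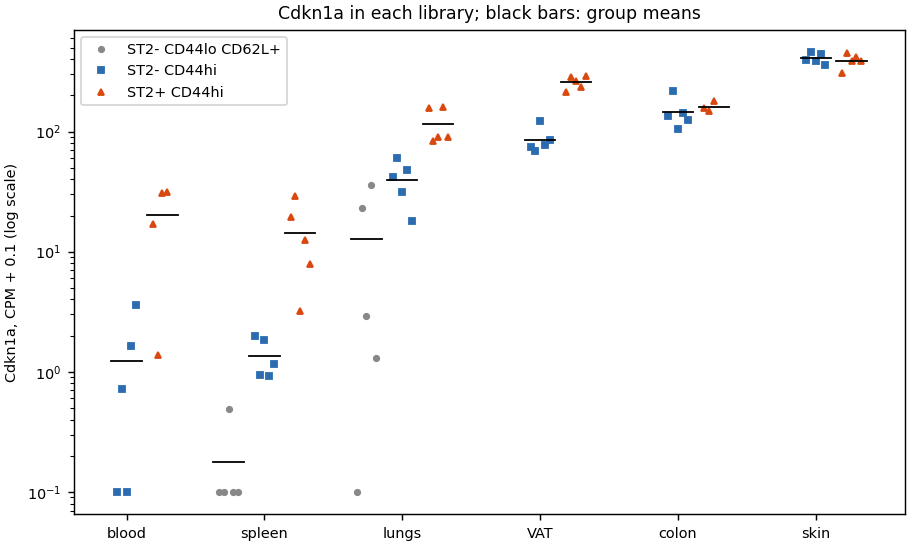
Cdkn1a in each library as CPM + 0.1 on a log axis (y), by tissue (x). Each point is 1 mouse, and black bars are group means + 0.1. ST2+ Tregs (orange triangles) lie above ST2- CD44hi Tregs (blue squares) in spleen, lungs and VAT without overlap, and the populations overlap in blood, colon and skin.

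Cdk6, the kinase that pairs with D cyclins beside Cdk4, was the other member called by ST2 in the edgeR fit of all groups, in VAT. There it was at 201, 155, 270, 246 and 211 CPM in ST2+ and at 148, 34.4, 56.7, 171 and 99.4 CPM in ST2- CD44hi Tregs of mice 1 to 5. ST2+ was higher in each mouse although the groups overlapped, and the log2 fold change was 1.08 (SE 0.29, edgeR adjusted p = 0.0171). Without mouse 2, 3 or 5 the adjusted p was 0.080, 0.181 and 0.105, without mice 2 and 4 it was 0.0709, and with the 2 VAT groups fitted alone it was 0.231. VAT ST2- libraries of mice 2 to 5 came from 93 to 192 sorted cells and the VAT ST2+ libraries from 220. The part of cell number in the Cdk6 difference was not tested.

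In spleen the Cdk6 groups did not overlap, with 98.1 to 120 CPM in ST2+ and 45.7 to 94.8 CPM in ST2- CD44hi Tregs, nor did they in lungs, with 89.1 to 148 against 45.3 to 88.7 CPM. ST2+ was higher in 5 of 5 mice in both tissues, but neither was called in the edgeR fit of all groups. No share of all genes that separate these groups in the same way is given, so the lack of overlap is a description only. The log2 differences were 0.61 (95% interval 0.05 to 1.17, edgeR adjusted p = 0.894) and 0.92 (95% interval 0.35 to 1.49, adjusted p = 0.131). The lung difference was called in limma voom (0.89, adjusted p = 0.0453) and in edgeR on the 2 groups alone (0.93, adjusted p = 0.0230). In blood, colon and skin the Cdk6 groups overlapped and the log2 differences were 0.30, -0.26 and -0.02.

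No D cyclin was called between ST2+ and ST2- CD44hi Tregs in any tissue. Ccnd2, the most abundant of them in CPM, came closest in VAT, where ST2+ libraries held 744 to 850 CPM and ST2- libraries 581 to 759 CPM. The groups overlapped by a single library each way, ST2+ was higher in 5 of 5 mice, and the log2 difference was 0.32 (95% interval 0.12 to 0.53, edgeR adjusted p = 0.0607). Ccnd3 had the lower mean in ST2+ Tregs in all 6 tissues, with log2 differences from -0.03 in lungs to -0.42 in colon and adjusted p from 0.273 to 1.

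The remaining members showed no called ST2 difference. For Cdk4 the log2 differences lay between -0.12 and 0.16 with 95% intervals from -0.34 to 0.39. Cdkn1b, which encodes p27, had differences between -0.31 and 0.02 with wider intervals, reaching -0.95 in colon. Cdkn2d, which encodes p19, lay between -0.18 and 0.30. Cdkn2c, which encodes p18, had 11.9, 13.8, 12.7, 17.3 and 43.3 CPM in blood ST2- CD44hi against 41.5, 42.4, 27.2 and 67.8 CPM in blood ST2+ libraries, higher in 4 of 4 mice (log2 difference 1.20, 95% interval 0.09 to 2.31, edgeR adjusted p = 0.227).

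**Figure D3:**
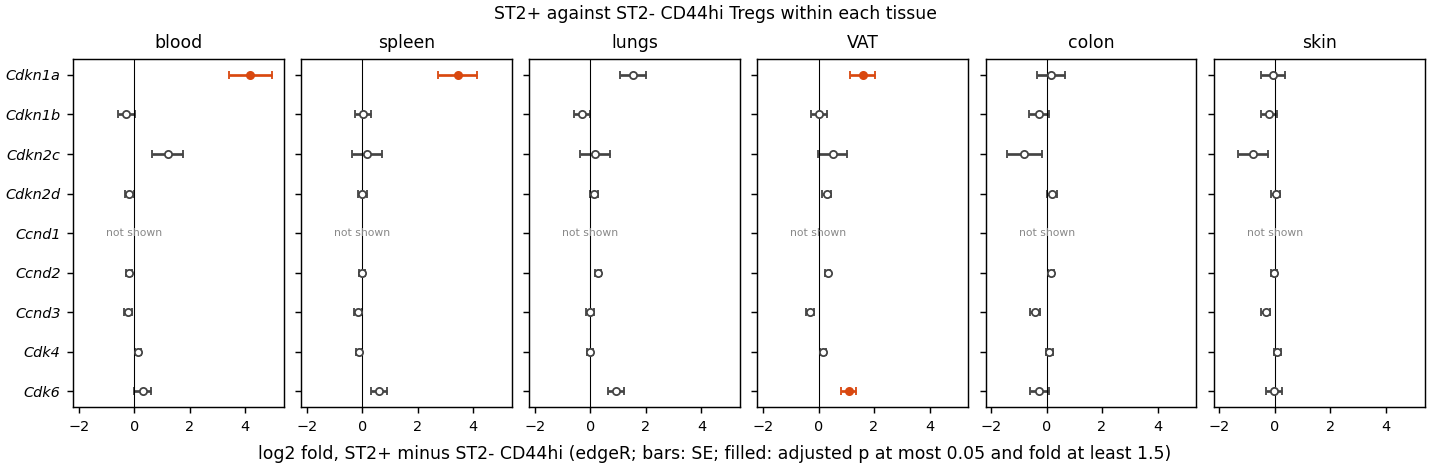
Log2 fold change of ST2+ over ST2- CD44hi Tregs (x axis, edgeR) for each gene (y axis) in each tissue, with bars of 1 SE. Filled orange points have an adjusted p of at most 0.05 and a fold of at least 1.5, and Ccnd1 is left out because most of its libraries had no count. Cdkn1a stands to the right of 0 in blood, spleen, lungs and VAT, and close to 0 in colon and skin.

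The second question was how effector CD44hi Tregs differed from central CD44lo CD62L+ Tregs in spleen and lungs. Without ST2, 4 of 18 tests were called (5.27% of all gene by tissue tests, 4.99% in spleen and 5.55% in lungs), and in ST2+ cells 5 of 18 (9.61%, with 7.15% in spleen and 12.1% in lungs). Both comparisons share the CD44lo libraries. Cdkn2c was called in each of the 4 contrasts.

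Cdkn2c stood at 0, 0, 4.65, 0 and 8.15 CPM in spleen CD44lo Tregs of mice 1 to 5, and at 50.5, 36.8, 40, 8.29 and 49.2 CPM in spleen ST2- CD44hi Tregs. In lungs CD44lo Tregs had 6.25, 6.53, 0, 3.15 and 4.79 CPM and ST2- CD44hi Tregs 21.4 to 50.2 CPM. All CD44hi libraries lay above all CD44lo libraries in both tissues. The log2 fold changes were 3.77 in spleen (SE 0.62, edgeR adjusted p = 9.48e-06) and 2.96 in lungs (SE 0.60, adjusted p = 0.000341), and ST2+ Tregs differed from CD44lo Tregs by 3.94 and 3.13 (adjusted p = 3.09e-06 and 7.55e-05). These calls held in every alternative tried.

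Cdkn2d, the other INK4 gene measured at a good level, went the other way in spleen. It was at 197 to 215 CPM in spleen CD44lo Tregs, 105 to 139 CPM in ST2- CD44hi and 100 to 143 CPM in ST2+ CD44hi Tregs, with no overlap. The log2 fold changes were -0.69 for each (SE 0.16, edgeR adjusted p = 0.00181 and 0.00147), and without mice 2 and 4 the former was -0.65 with an adjusted p of 0.0987. In lungs CD44lo Tregs already had 124 to 169 CPM, and the differences were -0.10 (95% interval -0.41 to 0.20) and 0.02.

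Cdkn1a was near 0 in CD44lo Tregs of spleen. These CD44lo libraries held 1 count in all, in mouse 3, so the ratio of ST2+ over CD44lo Tregs, 167 counts against 1, was 170 with an exact 95% interval of 30.1 to 6749 for counting error (edgeR adjusted p = 2.91e-06). For ST2- CD44hi Tregs, with 16 counts, the ratio was 15.6 (2.43 to 656) and was not called (edgeR adjusted p = 0.295, and 0.0307 in DESeq2, which called it).

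In lungs, CD44lo Tregs had Cdkn1a at 0, 23.1, 2.81, 35.7 and 1.20 CPM, so mice 2 and 4 were high and the other three low. ST2- CD44hi Tregs of lungs had 41.4, 60.02, 31.4, 47.5 and 18.04 CPM, overlapping the CD44lo group (log2 fold change 1.69, SE 0.51, edgeR adjusted p = 0.0305). That call was lost without mouse 1, 2, 3 or 5 (adjusted p = 0.182, 0.0782, 0.116 and 0.112), in DESeq2 (0.0532) and with only the groups compared (0.293). Lung ST2+ Tregs, all above 82 CPM, lay clear of the CD44lo group with a log2 fold change of 3.24 (SE 0.51, adjusted p = 2.04e-06).

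No D cyclin or kinase was called in the edgeR fit of all groups. Ccnd2 was at 604 to 714 CPM in spleen CD44lo Tregs against 479 to 606 in ST2- CD44hi and 494 to 613 CPM in ST2+ Tregs, log2 differences of -0.32 each (edgeR adjusted p = 0.0540 and 0.0400), below the fold required. Ccnd3 in spleen was at 291 to 351 CPM in CD44lo and 209 to 262 CPM in ST2+ Tregs without overlap (log2 difference -0.44, adjusted p = 0.0451), also below it. Cdk6 was at 44.1 to 84.7 CPM in spleen CD44lo and 98.1 to 120 CPM in ST2+ Tregs, again without overlap but not called (log2 difference 0.81, adjusted p = 0.0741). That Cdk6 difference was called in limma voom (adjusted p = 0.00740), in DESeq2 (0.0420), in edgeR on only the groups compared (0.0104) and without mice 2 and 4 (0.0365), and limma voom also called Cdk6 in lung ST2+ over CD44lo Tregs (0.71, adjusted p = 0.0495). Cdk4 and Cdkn1b differed by at most 0.19 and 0.41 on the log2 scale in these 4 contrasts.

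Other parts of the pathway were read from lists. Of 22 genes of S phase and mitosis, 10 were called higher in spleen and 14 in lungs in ST2- CD44hi over CD44lo Tregs and none lower, with medians of 1.90 and 2.49 against 0 over all genes. Mki67, the proliferation antigen, was at 59.2 against 0.461 CPM in spleen and 154 against 0.696 CPM in lungs. Top2a, a DNA topoisomerase, was at 91.7 against 5.97 CPM and Tyms, which makes thymidylate, at 71.9 against 15.6 CPM in spleen.

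Of 13 pocket protein and E2F genes, 1 was called higher in spleen and 3 in lungs in that comparison, and of 8 genes of the G1-S step 1 and 2. Of all genes 4.33% were called higher in spleen and 4.81% in lungs of these tissues, and 1 gene of a list this short is not set apart from such shares. Ccna2, cyclin A, was at 44.98 against 0.157 CPM in spleen. Of 10 genes that turn over p27 and D cyclins 1 was called in each tissue, Cks1b, the cofactor that brings p27 to its ligase, at 40.8 against 13.4 CPM in spleen. Of 11 quiescence and FOXO target genes 4 were called lower in spleen, Klf2, S1pr1, Lef1 and Foxo1, and 1 in lungs, Lef1, where 0.653 and 0.736% of all genes were called lower.

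The third question was how the members differed among tissues. In ST2- CD44hi Tregs 8 of the 9 members differed among the 6 tissues by the edgeR F test (43.3% of all genes did), and in ST2+ Tregs 7 of 9 (47.7%). Cdkn2c was called in neither, with edgeR adjusted p of 0.125 and 0.707, and its other tests by voom, DESeq2 and the tissue groups alone gave 0.0398, 0.0274 and 0.0284 in ST2- Tregs. In ST2- Tregs the F test calls of Ccnd1 and Ccnd3 held in 5 and 8 of 13 alternatives, and in ST2+ Tregs that of Cdkn1b in 9. The members were chosen with earlier results of these data known, so their shares beside those of all genes are descriptions only. Against spleen, 8 of 45 tests were called in ST2- CD44hi Tregs (11.1% of all) and 8 of 45 in ST2+ Tregs (12.0%). By tissue the share of all genes called over spleen was 30.9% in skin, 11.1% in colon, 5.91% in VAT, 4.08% in lungs and 3.61% in blood in ST2- CD44hi Tregs, and 29.1, 10.5, 11.2, 4.90 and 4.35% in ST2+ Tregs.

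Cdkn1a gave 4 of the 8 calls in each population. In ST2- CD44hi Tregs its mean level was lowest in blood, at 1.13 ± 1.47 CPM (SD, n = 5), and spleen, at 1.27 ± 0.50 CPM. Lungs followed at 39.7 ± 15.9, VAT at 85.6 ± 21.3, colon at 145 ± 43.7 and skin at 406 ± 42.1 CPM. The steps from spleen to lungs and from colon to skin were called (edgeR adjusted p = 1.43e-07 and 0.0123), and blood against spleen, lungs against VAT and VAT against colon were not. Over spleen the log2 fold changes were 8.27 in skin, 6.78 in colon, 6.03 in VAT and 4.91 in lungs, on 16 spleen counts, and no lung, VAT, colon or skin library was as low as any spleen library.

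In ST2+ Tregs Cdkn1a began higher, at 14.3 ± 10.2 (SD, n = 5) CPM in spleen and 20.1 ± 14.2 (SD, n = 4) in blood. Lungs followed with 115 ± 38.5 (n = 5), colon with 161 ± 16.0 (n = 3), VAT with 257 ± 33.6 (n = 5) and skin with 389 ± 51.8 CPM (n = 5). The step from blood to lungs was the single called step (edgeR adjusted p = 0.00129). Skin over spleen was 4.78 on the log2 scale (SE 0.53). The calls of lungs, VAT, colon and skin over spleen held in every alternative tried, in both CD44hi populations, and the steps between other tissues were not refitted.

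The same direction appeared in central Tregs, where Cdkn1a had 123 counts in lungs against 1 in spleen. The ratio was 129 (exact 95% interval 22.7 to 5120 for counting error, edgeR adjusted p = 2.11e-05). Of the 9 members 2 were called between lung and spleen CD44lo Tregs, where 3.20% of all genes were. Lung mice 1, 3 and 5 held 0, 2.81 and 1.20 CPM, so most of the counts came from mice 2 and 4. With those 2 mice left out, a choice made after seeing the data, the log2 difference was 2.83 and was not called (edgeR adjusted p = 0.632).

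Genes that respond to cell isolation moved with the same tissues. The 12 immediate early and heat shock genes summed to 1280 to 2258 CPM in blood and 1339 to 3460 CPM in spleen. Lungs had sums of 3537 to 5958, VAT of 2788 to 9018, colon of 5434 to 9941 and skin of 5718 to 8100 CPM. Against spleen, 8 were called higher in lungs (and 1 lower), 8 in VAT, 10 in skin and 11 in colon in ST2- CD44hi Tregs, and 5 in lung CD44lo Tregs. The shares of all genes called higher there were 3.35% in lungs, 4.47% in VAT, 17.1% in skin, 8.81% in colon and 2.17% in lung CD44lo Tregs. Atf3, a stress factor, went from 0.0829 CPM in spleen to 313 CPM in skin ST2- CD44hi Tregs, and Zfp36, which breaks down messages, from 172 to 701 CPM.

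Within groups, the library with the highest sum was also the one with the highest Cdkn1a in 5 of the 14 groups. With so few libraries per group some such matches arise by chance, so this count is a description only. In VAT ST2+ Tregs both ran in the same order over the 5 mice, with sums of 6248, 6841, 8163, 8977 and 9018 CPM beside Cdkn1a at 213, 232, 261, 286 and 291 CPM. In lung CD44lo Tregs mice 2 and 4 had the highest sums, 4701 and 4252 CPM, and the highest Cdkn1a, whereas mice 1, 3 and 5 had sums of 3603, 4201 and 3589 CPM.

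Within spleen, mice 2 and 4 had the higher sums in all 3 populations, 2449 to 3460 against 1339 to 2087 CPM. Spleen ST2+ Cdkn1a was at 29.1 and 12.4 CPM in those mice and at 19.3, 3.12 and 7.76 CPM in the others, and in spleen ST2- CD44hi Tregs, on 16 counts in all, at 0.837 and 0.829 CPM against 1.05 to 1.87 CPM. In blood ST2+ Tregs mice 4 and 5 had the highest Cdkn1a, 30.9 and 31.2 CPM, and the lowest sums, 1898 and 2019 CPM. The part of cell isolation in the tissue differences of Cdkn1a was not tested.

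**Figure D4:**
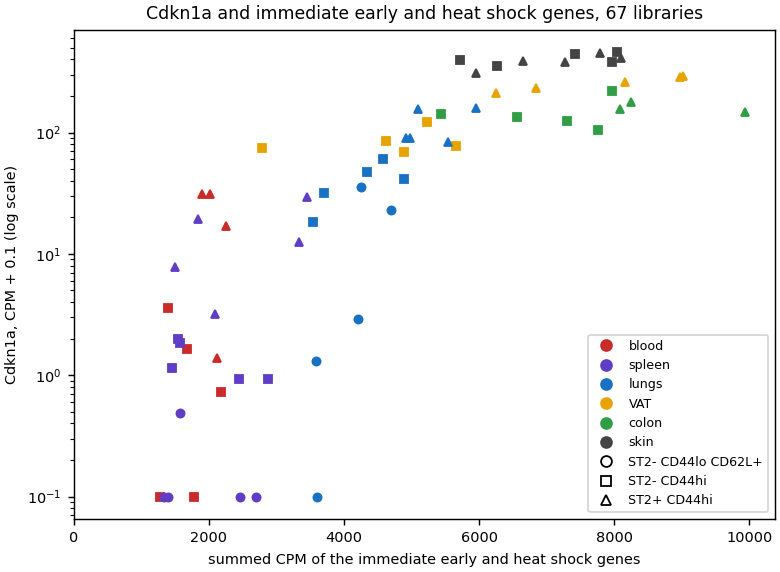
Cdkn1a (y axis, CPM + 0.1, log scale) against the summed CPM of 12 immediate early and heat shock genes (x axis) in 67 libraries, coloured by tissue and shaped by population. Blood and spleen libraries lie at the left with Cdkn1a at 31.2 CPM or less, skin libraries have 308 CPM or more, and all spleen ST2+ libraries lie above the spleen ST2- ones although the sums overlap.

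Other p53 targets were mixed. Of 13 tested, 6 were called higher and 1 lower in skin over spleen in ST2- CD44hi Tregs, with a median of 0.85 against 0 over all genes, and 5 higher and 0 lower in ST2+ Tregs. Of all genes 17.1% were called higher and 13.9% lower in that comparison of ST2- CD44hi Tregs, and 14.6 and 14.5% in that of ST2+ Tregs. Trp53inp1, a stress-induced cofactor of p53, was at 652 in skin against 325 CPM in spleen, Mdm2, the ligase that turns over p53, at 280 against 165 CPM, and Gadd45a, a growth arrest gene, at 27.7 against 6.09 CPM. In VAT, where Cdkn1a was higher in ST2+ Tregs, 2 of the 13 were called between the populations, both lower in ST2+ cells: Trp53inp1 at 366 against 663 CPM and Fas, a death receptor, at 29.8 against 61.2 CPM. Between these VAT populations 1.92% of all genes were called lower in ST2+ Tregs.

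Cdkn1b, the other Cip/Kip gene, was lowest in spleen. In ST2- CD44hi Tregs the mean was 81.1 ± 27.1 (SD, n = 5) in spleen against 171 ± 23.8 in blood and 193 ± 28.0 CPM in skin, with lungs, VAT and colon between. Skin lay above spleen without overlap (log2 fold change 1.26, SE 0.30, edgeR adjusted p = 0.00064), as did blood (1.10, SE 0.30, adjusted p = 0.0177). In ST2+ Tregs skin was at 166 ± 30.1 against 82.0 ± 28.1 CPM (n = 5, 1.03, SE 0.30, edgeR adjusted p = 0.00562), and in CD44lo Tregs lungs were at 159 ± 60.1 against 79.2 ± 33.6 CPM (n = 5, 1.02, SE 0.30, edgeR adjusted p = 0.0346).

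The F test among tissues for Cdkn1b had an adjusted p of 0.0583 without mouse 3 in ST2- CD44hi Tregs, and of 0.120, 0.280 and 0.149 without mouse 2, 3 or 5 in ST2+ Tregs. The spleen level of Cdkn1b differed by mouse. Mice 1 and 3 were at 34.1 to 60.2 CPM in all 3 spleen populations, and mice 2, 4 and 5 at 85.4 to 114 CPM. Mouse 1 was also lowest outside spleen, at 49.8 and 70.1 CPM in VAT ST2- and ST2+ CD44hi Tregs. The same held in colon (50.6 and 74.3 CPM) and skin (151 and 117 CPM). In lungs mouse 1 was lowest in ST2- CD44hi and CD44lo but not in ST2+ Tregs, and in blood ST2- CD44hi Tregs it was not. Mouse 3 weighed on these calls. Without it the edgeR adjusted p was 0.115 for blood and 0.0589 for skin ST2+ over spleen and 0.224 for lung CD44lo Tregs. Without mouse 4 or 5 the blood call had 0.0621 and 0.0729, and without mouse 2 or 4 the CD44lo call had 0.142 and 0.133. Without both mice the blood and CD44lo calls had 0.0983 and 0.385, and with only the groups compared the CD44lo call had 0.0798. With the mouse as a replicate block, which pairs the libraries of a mouse, lungs over spleen in ST2- CD44hi and blood over spleen in ST2+ Tregs were also called (adjusted p = 0.0022 and 0.0467, against 0.0655 and 0.135 without the block). The former was also called in limma voom, DESeq2, edgeR on only the groups compared and without mouse 1 (adjusted p = 0.00440 to 0.0470).

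Cdkn2d had its lowest means in skin, 93.4 ± 24.4 and 95.9 ± 22.0 CPM (SD, n = 5) in ST2- and ST2+ CD44hi Tregs. The highest CD44hi means were 163 ± 30.5 (n = 5) in blood ST2- and 155 ± 23.4 CPM (n = 5) in lung ST2+ Tregs. Against spleen it was not called in any tissue at the fold required (skin -0.43 and -0.39, edgeR adjusted p = 0.0302 and 0.0515), and skin against blood was called in both populations (log2 fold change -0.81 and -0.59, adjusted p = 4.45e-05 and 0.00488). No pair of neighbours in the order of its tissue means differed past the test.

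Cdkn2c had no such tissue order in CD44hi Tregs. Its means lay between 19.8 CPM in blood ST2- and 62.6 CPM in colon ST2- CD44hi Tregs, with single libraries from 7.67 to 99.7 CPM. Skin ST2+ mouse 1 held 7.67 CPM against 21.2 to 41.8 in the other 4 mice, and spleen ST2- CD44hi mouse 4 held 8.29 against 36.8 to 50.5 CPM. Colon and skin over blood were called in ST2- CD44hi Tregs (log2 fold change 1.64 and 1.39, edgeR adjusted p = 0.0286 and 0.0416), and no tissue was called against spleen.

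The 4 other inhibitor genes listed, Cdkn1c, Cdkn2a, Cdkn2b and Cdkn3, gave few calls. Cdkn2a stayed at or below 5.97 CPM in every library. Cdkn2b, the INK4 gene next to it, was listed at 0 in all 5 libraries of spleen ST2- CD44hi and of spleen CD44lo Tregs and reached 10.9 CPM (mean) in skin ST2- and 20.1 CPM in skin ST2+ Tregs. It was called higher over spleen in lungs, VAT, colon and skin in ST2- CD44hi Tregs. Cdkn1c, which encodes p57, had means of 16.2 CPM in blood ST2+ and 28.0 CPM in lung ST2+ against 1.03 and 3.53 CPM in the ST2- CD44hi Tregs of those tissues and was called in neither.

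Among the kinases Cdk6 stood out in skin. ST2- CD44hi Tregs of skin had 175, 209, 300, 318 and 201 CPM in mice 1 to 5 and those of spleen 92.4, 66.1, 94.8, 56.8 and 45.7 CPM. The groups did not overlap, and the log2 fold change was 1.78 (SE 0.29, edgeR adjusted p = 1.6e-06). In ST2+ Tregs skin, at 236 ± 38.4 (SD, n = 5), and VAT, at 217 ± 43.9 CPM (n = 5), lay above spleen, at 107 ± 9.69 CPM (n = 5), by 1.15 and 1.02 (edgeR adjusted p = 0.00123 and 0.00935, the latter 0.0502 without mouse 3 and 0.0543 without mice 2 and 4). Skin also exceeded its lower neighbour colon in ST2- CD44hi Tregs (adjusted p = 0.00622).

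Cdk4 fell in skin. Its skin means were 147 ± 12.9 and 157 ± 32.6 CPM (SD, n = 5) in ST2- and ST2+ CD44hi Tregs against 245 ± 20.95 and 225 ± 24.1 CPM (n = 5) in spleen. The log2 fold changes were -0.73 (SE 0.11, edgeR adjusted p = 7.15e-07) and -0.51 (SE 0.11, adjusted p = 0.000318, below the fold required). Skin ST2+ mouse 4, at 213 CPM, stood above the other 4 mice at 133 to 153 CPM, and without that mouse the difference was -0.63. Lungs were lower than spleen by 0.39 in ST2- CD44hi and by 0.41 in CD44lo Tregs (adjusted p = 0.0294 and 0.0255), also below the fold required.

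Per kilobase of merged exons, which allows genes to be compared, Cdk6 was 27.3 ± 5.4% (SD, n = 5) of Cdk4 plus Cdk6 in skin ST2- CD44hi and 26.2 ± 3.9% in skin ST2+ Tregs. The share was 6.29 ± 1.8% in spleen ST2- CD44hi Tregs, and 16.5 ± 3.9% in ST2+ against 9.05 ± 4.7% in ST2- CD44hi Tregs of VAT. With the longest coding transcript as length the skin shares were 22.4 and 21.4% and that of spleen was 4.90%. Both lengths left Cdk4 above Cdk6 in each group.

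**Figure D5:**
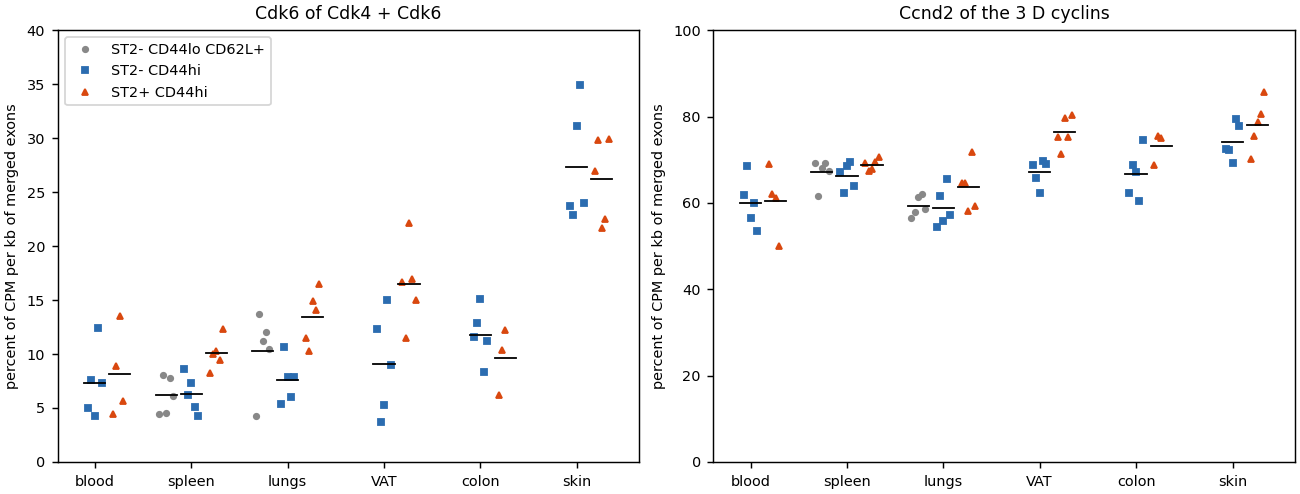
Share of Cdk6 in Cdk4 + Cdk6 (left) and of Ccnd2 in the 3 D cyclins (right), as percent of CPM per kilobase of merged exons (y axes), by tissue (x axis). Each point is 1 library and black bars are group means. The Cdk6 share is highest in skin, above 20% in all 10 libraries, and Ccnd2 is more than 50% of the D cyclins in every library on this length.

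Ccnd2 had the highest CPM of the 9 genes in every group, with group means from 393 to 812 CPM. Lungs were lowest in ST2- CD44hi Tregs at 393 ± 48.1 CPM (SD, n = 5), below spleen at 551 ± 46.0 CPM (log2 difference -0.47, edgeR adjusted p = 0.00169), under the fold required. VAT over lungs was called in both CD44hi populations, at 0.72 and 0.77 (adjusted p = 4.1e-06 and 4.78e-07), and skin over lungs in ST2- CD44hi Tregs at 0.74 (adjusted p = 1.12e-07). VAT ST2+ Tregs had the highest mean, 812 ± 39.8 CPM, 0.58 above spleen (adjusted p = 2.41e-05), just under the fold of 1.5, and with the mouse as a replicate block that pairing gave 0.59 and a call. In CD44lo Tregs lungs were again below spleen, 420 to 519 against 604 to 714 CPM with no overlap (-0.57, adjusted p = 9.25e-05, under the fold).

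Ccnd3, the other main D cyclin of T cells, was lowest in skin, at 210 ± 31.5 CPM (SD, n = 5) in ST2- and 166 ± 46.4 CPM (n = 5) in ST2+ CD44hi Tregs, and highest in blood at 315 ± 40.6 (n = 5) and 264 ± 37.6 CPM (n = 4). Skin against blood was called in both (log2 fold change -0.60 and -0.70, edgeR adjusted p = 0.000858 and 0.000261), and no tissue was called against spleen. Its F test among tissues in ST2- CD44hi Tregs had an adjusted p of 0.0147, of 0.0884, 0.173 and 0.0788 without mouse 3, 4 or 5, of 0.245 without mice 2 and 4 and of 0.182 with all 70 libraries. In ST2+ Tregs it was 0.00162, with 0.0522 without mouse 5 and 0.108 with all 70 libraries.

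Which of Ccnd2 and Ccnd3 led per length depended on the length. Per kilobase of merged exons Ccnd2 was 58.9 to 78.1% of the D cyclins by group mean, and with the longest coding transcript, which shortens Ccnd3 from 8775 to 2113 bases, it was 34.1 to 57.0%. On both lengths its share was lowest in lung ST2- CD44hi and highest in skin ST2+ Tregs.

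Ccnd1, the third D cyclin and rare in lymphocytes, had counts in 28 of the 67 libraries. Its highest libraries were colon ST2+ mouse 3 at 33.9 CPM, VAT ST2- CD44hi mouse 3 at 27.6 CPM and colon ST2- CD44hi mouse 2 at 12.8 CPM. The first of these held 1020 CPM of summed epithelial and 958 CPM of summed stromal markers, the second 434 CPM of stromal markers and 1488 CPM of B cell markers, and the third 752 CPM of epithelial and 804 CPM of stromal markers. Their part in the Ccnd1 counts was not tested.

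Colon ST2+ over spleen was the single Ccnd1 contrast with spleen that was called (64 counts against 2, ratio 68.1 with an exact 95% interval of 18.1 to 575 for counting error, edgeR adjusted p = 0.038). Colon ST2+ libraries held 8.15, 33.9 and 0.573 CPM, so the lowest lay within the range of other tissues. Without mouse 1, 2, 3 or 4 the adjusted p was 0.0874, 0.0907, 0.335 and 0.0864, and it was 0.187 without mice 2 and 4, 0.0943 in DESeq2 and 0.0522 with no filter on low counts. The F test of Ccnd1 among tissues in ST2- CD44hi Tregs had an adjusted p of 0.0349, of 0.0504 to 0.107 without mouse 1, 2, 4 or 5, of 0.224 without mice 2 and 4, and of 0.141, 0.146 and 0.0639 in limma voom, in DESeq2 and with only the groups compared. In ST2- CD44hi Tregs colon over spleen, 41 counts against 1, was not called (adjusted p = 0.0615) and was with the mouse as a replicate block (adjusted p = 0.00699), a fit that pairs the libraries of each mouse, and in limma voom, with only the groups compared and without mouse 3 (adjusted p = 0.0336 to 0.0489).

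As shares of the 4 inhibitors per kilobase of merged exons, Cdkn2d made up 87.7 ± 4.9% (SD, n = 5) in spleen CD44lo Tregs and 71.8 ± 6.2% in spleen ST2- CD44hi Tregs. In skin Cdkn1a made up 48.7 ± 3.6% and 50.05 ± 4.5% in ST2- and ST2+ CD44hi Tregs, and Cdkn2d 24.9 ± 4.5% and 28.2 ± 7.9%. Cdkn1a thus passed Cdkn2d in skin alone, and with the longest coding transcript as length it also passed it in VAT ST2+ Tregs, 44.6 against 37.7%.

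Of 7 tested inducers of D cyclins 4 were called higher and 1 lower in skin over spleen in ST2- CD44hi Tregs, where 17.1 and 13.9% of all genes were, and 5 higher and 1 lower in ST2+ Tregs, where 14.6 and 14.5% were. Rel, a NF-kB subunit, went from 127 to 1248 CPM in ST2+ Tregs, Nfkb1 from 255 to 709, Il2ra, a chain of the IL-2 receptor, from 439 to 978 and Stat5a, which acts below that receptor, from 100 to 438 CPM. Myc was the gene called lower, at 53.3 in skin against 193 CPM in spleen in ST2- CD44hi Tregs.

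Of 8 genes of the G1-S step 2 were called lower in skin over spleen in ST2- CD44hi Tregs, and 3 lower and 1 higher in ST2+ Tregs, counts too small to set apart from the shares of all genes called there (30.9 and 29.1%). Ccnh and Cdk7, which form the kinase that activates other CDKs, were at 44.4 against 105 CPM and at 62.6 against 117 CPM. Of the 22 S phase and mitosis genes 4 were called lower in that comparison and none higher, among them Mcm7, Mcm2 and Mcm4 of the replicative helicase, and in ST2+ Tregs 2 were called higher and none lower, where 30.9 and 29.1% of all genes were called (13.9% lower in the former and 14.6% higher in the latter).

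Over the 14 group means of log2 CPM, the members were set beside all tested genes. The groups share mice and isolation steps, so these correlations are descriptions only. Cdkn1a ran closest to Ell2, an elongation factor of transcription (Pearson r 0.980), Lmna, lamin A/C (0.977), and Itgav, the integrin alpha V chain (0.972), which went from 16.2, 13.5 and 96.8 CPM in spleen to 258, 1459 and 984 CPM in skin ST2- CD44hi Tregs. Cdkn2c ran closest to Maf, a transcription factor of effector T cells (0.980), Sdcbp2 (0.961) and Dkkl1 (0.960), and Cdk6 to Tgfb1, the cytokine TGF-beta 1 (0.970), Plxnd1 (0.961) and Arl5a (0.947). For Cdk4 it was Dtymk, thymidylate kinase (0.952), with Ddx1 (0.918) and 3830406C13Rik (0.917).

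The nearest genes of the others were less close or rested on few counts. They were Gpcpd1, Actr1a and Nsd3 for Cdkn1b (0.942 to 0.884), Flt3l, Arhgap1 and Tcof1 for Cdkn2d (0.943 to 0.914), Tuba4a, Flvcr2 and Tesk1 for Ccnd2 (0.941 to 0.846), and Ifi208, Pced1b and Nprl3 for Ccnd3 (0.909 to 0.888). For Ccnd1 they were Cbfa2t3, Smagp and Gab2 (0.951 to 0.949). Among the members themselves the highest was Cdk6 with Cdkn1a (0.817) and the lowest Cdk6 with Ccnd3 (-0.750).

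Some reads could belong to neighbours on the opposite strand, since strand use in counting was not given in the sources used here. Exons of LTO1 cover 23.4% of Ccnd1 exon bases, those of Tspan31 19.7% of Cdk4, an antisense gene 7.68% of Cdkn1a and Bysl 4.11% of Ccnd3. The pseudogene Ccnd3-ps had at most 5 counts in a library.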

How the data were processed

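Tregs of 5 mice were sorted and sequenced as 70 libraries in 14 groups of tissue and population, grouped by their labels. The authors made cDNA with SMART-Seq v4 and libraries with Nextera XT, sequenced single reads of 58 bases, and used CASAVA 1.8.2, STAR, Picard and HTSeq 0.4.1 on GRCm38 with Ensembl genes, per the submitters' processing notes and the study's methods. The deposited values are raw read counts per gene, and 0 value columns were unused. For the counting, the strand setting and any removal of duplicate reads were not given in the sources used here. The largest count of any gene in a kept library was 5968. Whether removal of duplicate reads held down the counts of highly expressed genes, and with them folds and per-length shares, cannot be told from these sources.

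Libraries with over 1000000 counts were kept (67 of 70). Protein-coding genes (GENCODE M21) that reached 1 CPM in 10% or more of the libraries were tested with edgeR 4.0.16 in R 4.3.3 (TMM, glmQLFit and glmQLFTest, 1 term per group, no mouse term), with Benjamini-Hochberg adjustment over all genes. CPM and log2 values used TMM-scaled totals, the log2 values with a prior count of 2. Ratios on few counts have exact intervals that cover counting error only, since reads without molecular identifiers are not independent molecules. The replicate number is the mouse, so libraries are paired by design. Over 27 pairs of libraries of the same mouse, deviations from the group means correlated at a mean r of 0.0716 (lowest -0.00633, 6 over 0.1), against -0.0175 between mice.

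The alternatives were a replicate block for mouse, median-of-ratios factors, limma 3.58.1 voom with quality weights, DESeq2 1.42.0, no filter on low counts (18536 genes), all 70 libraries, only the groups compared, each mouse left out, and, added after seeing the data, mice 2 and 4 left out. Fits were tested on simulated data. The members and gene lists were chosen with earlier results of these data known. Named genes were the 9 members, at most 4 genes per list and comparison with the smallest adjusted p, and for each member the 3 genes with the highest r over 14 group means. Promoters came from RefSeq (GRCm38).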

Additional observations from a re-analysis of the deposited data

Results flagged for a closer look

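In 13 of 117 sets of libraries of 1 gene and group, 1 library lay far from the others, where chance alone gives about 1 in 20. Of these, 8 were Ccnd1, in groups where 2 or more of 5 libraries had no count: blood ST2- CD44hi mouse 5 at 1.17 CPM, spleen ST2- CD44hi mouse 3 at 0.435, VAT ST2- CD44hi mouse 3 at 27.6, skin ST2- CD44hi mouse 3 at 5.10, spleen ST2+ mouse 5 at 0.706, lung ST2+ mouse 2 at 4.55, spleen CD44lo mouse 5 at 1.16 and lung CD44lo mouse 2 at 0.502 CPM. The single count of Cdkn1a in spleen CD44lo Tregs, 0.387 CPM in mouse 3, was another. Cdkn2c stood apart in blood ST2- CD44hi mouse 5, at 43.3 CPM, and in lung ST2+ mouse 4, at 29.4 CPM. Ccnd2 was low in VAT ST2+ mouse 1, at 744 CPM, and Cdk4 high in skin ST2+ mouse 4, at 213 CPM.

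The difference of Cdkn1a between ST2+ and ST2- CD44hi Tregs was not the same in the 6 tissues (edgeR adjusted p = 0.00578). That call was lost without mouse 2 (adjusted p = 0.109), without mouse 4 (0.0879) and without both (0.282). The log2 difference was lower than in blood by 4.03 units in colon (-4.03) and by 4.25 in skin (-4.25). In blood it rests on 10 counts in the ST2- CD44hi libraries.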

How the results depend on the processing

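Of 216 tests of a member in a comparison, 149 were called in no setting, 47 in the reported fit and 20 in another setting alone, and no called value changed sign. Each mouse was left out in turn. The calls of a member in a tissue between ST2+ and ST2- CD44hi Tregs then numbered 1 to 4 of 54 (4 with all mice). Such calls between other tissues and spleen in ST2+ Tregs numbered 5 to 9 of 45 (8). The members called in the test of tissue by ST2 numbered 0 to 1 (1), and those between lung and spleen CD44lo Tregs 1 to 2 (2). With mice 2 and 4 both left out, which was chosen after seeing the data and leaves 3 mice, these counts were 1 for ST2, 0 for tissue by ST2 and 1 for CD44lo Tregs, and 14 results lost their call. Limma voom and DESeq2 each called 2 members in the test of tissue by ST2, adding Cdk6 and Ccnd2 in turn (adjusted p = 0.0285 and 0.0332), and the fit of only the groups compared called 1 between lung and spleen CD44lo Tregs. Median-of-ratios factors changed no call. The replicate block, which pairs the libraries of a mouse, ended no call and added 5 (adjusted p = 0.0022 for Cdkn1b in lung over spleen ST2- CD44hi Tregs, 0.0467 in blood over spleen ST2+ Tregs, 0.00699 for Ccnd1 in colon ST2- CD44hi Tregs and 0.0184 for its F test in ST2+ Tregs, and 4.45e-06 for Ccnd2 in VAT ST2+ Tregs). The causes of the other changes were not tested. At these depths Cdkn1a in blood and spleen ST2- CD44hi Tregs and Ccnd1 in most groups rest on few counts.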
